A study of Mus musculus with 44 samples.

Results

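The erythroid miRNAs mmu-miR-451a, mmu-miR-144-3p, mmu-miR-144-5p, mmu-miR-486a-5p and mmu-miR-486b-5p, written below without the mouse prefix, were followed by name through every small-RNA library made from mouse hypothalamus, 5 of the 1978 mature miRNAs in the count table. They were chosen by name and not by a cut on their values, although with earlier results of these data known, and all 5 passed the filter on low counts in every comparison. Together they held between 0.0580% and 0.255% of a library's miRNA counts, with a median of 0.101%, so they are a small part of this brain RNA. By mean share of a library's counts over 44 libraries, miR-451a ranked 136 of 1978, miR-486b-5p 168, miR-486a-5p 177, miR-144-3p 216 and miR-144-5p 299.

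The libraries came from C57Bl/6J mice. AM132 (16 libraries) denotes mice made obese on a high-fat diet for 11 weeks and injected with a locked nucleic acid oligonucleotide of 16 nt that pairs with miR-132. AM608 (16 libraries) denotes mice made obese in the same way and given an oligonucleotide of 15 nt that pairs with miR-608, a primate miRNA, as the control. RCD (12 libraries) denotes lean, age-matched mice on regular chow for 11 weeks. The injected mice received 3.3 mg/kg into a vein on each of 3 days and were killed 7 days afterwards. No injection of the RCD mice is recorded, so where an injected group is set against RCD, diet and injection cannot be told apart. The labels give no age in numbers and no sex, and they mention no flushing of blood from the vessels before the tissue was frozen. Each library is labelled as 1 mouse sample. AM132 had 4, 8 and 4 libraries in batches 1, 2 and 3, and AM608 was spread in the same way. RCD had 4 libraries in batch 2 and 8 in batch 4, where it stood alone. The labels do not say which step a batch refers to.

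Red blood cells lose their nucleus as they mature but keep a store of small RNAs made while the precursor cell was still transcribing. miR-451a and miR-144 are cut from a common transcript that the erythroid factor GATA1 turns on, and both take part in red-cell maturation and in the defence of these cells against oxidative stress. miR-451a is unusual among miRNAs because its hairpin is too short for Dicer and is cut by Argonaute 2 instead, so the mature strand runs around the loop. miR-486 lies within Ank1, the gene for the red-cell membrane protein ankyrin, and is abundant in erythroid cells and in striated muscle. In a sample of solid tissue these miRNAs serve as a gauge of how much blood the sample holds.

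The mature sequences are shown because they separate the members by seed and by the way each is cut from its hairpin. They were available for 3 of the 5 members in RefSeq (build GRCm38.p6), read 5′ to 3′, with the seed, bases 2 to 8, in capitals. miR-101a-3p stands beside them as the only mature miRNA of the 1679 compared that has bases 2 to 7 of miR-144-3p; its base 8 differs.
miR-451a: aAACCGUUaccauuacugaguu
miR-144-3p: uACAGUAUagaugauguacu
miR-144-5p: gGAUAUCAucauauacuguaagu
miR-101a-3p: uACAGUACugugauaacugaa
The seeds of miR-451a and miR-144-5p were found in 0 other mature miRNAs of the 1679. In the hairpins, the capitals mark the mature strands.
Mir144 hairpin: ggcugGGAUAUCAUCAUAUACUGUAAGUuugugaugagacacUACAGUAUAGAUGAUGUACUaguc
Mir451a hairpin: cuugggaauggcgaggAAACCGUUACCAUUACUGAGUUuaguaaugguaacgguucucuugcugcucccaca
The Mir144 hairpin of 66 nt carries miR-144-5p at positions 6 to 28 and miR-144-3p at positions 43 to 62, one on each side of the loop. The Mir451a hairpin of 72 nt carries its single mature strand at positions 17 to 38.

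Both hairpins lie on the plus strand of chromosome 11 in GRCm38, Mir144 at 78073005 to 78073070 and Mir451a at 78073170 to 78073241, with 99 bases between them and in no other gene. Mir451b occupies the same interval as Mir451a on the minus strand. Mir486 lies on the plus strand of chromosome 8 at 23142555 to 23142682, inside an intron of Ank1. Mir3107, on the opposite strand there, is the gene that RefSeq also lists as mir-486b. The Mir486 and Mir3107 hairpins overlap, and how reads were shared between their miRNAs is not given in the sources used here. The split of counts between miR-486a-5p and miR-486b-5p is therefore uncertain. Their levels had a Spearman's rho of 0.99 after each batch mean was subtracted. In any count of members below, the 2 are not independent.

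Levels are given as scaled CPM, each count as CPM of its library's miRNA total after scaling by TMM over all 44 libraries. Library totals ran from 3020192 to 5997234 counts. The neuronal miRNAs miR-124-3p, miR-9-5p and miR-128-3p were abundant in every library, with a summed level of 101748 to 146675 scaled CPM in AM132, AM608 and RCD of batch 2 and 252099 to 378523 in the other batches. Counts per library were 733 to 7263 for miR-451a, 534 to 2307 for miR-486a-5p, 560 to 2581 for miR-486b-5p, 173 to 2090 for miR-144-3p and 46 to 589 for miR-144-5p. The lowest of these counts, 46 for miR-144-5p in AM608 5, corresponds to 12.4 CPM before scaling, with a 95% Wilson interval of 9.28 to 16.5. For miR-451a in the same library the interval was 183 to 212 CPM around 197 CPM. These intervals cover counting error only.

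miR-451a, the most abundant of the set, had 149.7 scaled CPM in the lowest AM132 library, 472 in the median and 822 in the highest. In AM608 libraries the lowest, median and highest were 182, 347 and 1467 scaled CPM, and in RCD libraries they were 291, 437 and 601. The 3 groups overlapped, and the RCD values lay within the range of both obese groups. The highest library, AM608 16, held 9.80 times the miR-451a of the lowest, AM132 12.

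miR-144-3p, the arm of miR-144 with the higher count, had 36.4, 102 and 205 scaled CPM in the lowest, median and highest AM132 library. The AM608 values were 50.5, 96.2 and 367 scaled CPM, and the RCD values 75.3, 120 and 153. miR-144-5p, the other arm, had 13.9, 37.1 and 65.9 scaled CPM in AM132, 11.4, 29.04 and 103 in AM608, and 17.8, 38.4 and 48.4 in RCD. For both arms the groups overlapped and AM608 4 was the highest library; the range over all libraries was 10.1-fold for miR-144-3p and 9.05-fold for miR-144-5p.

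miR-486a-5p had 154.7, 234 and 320 scaled CPM in the lowest, median and highest AM132 library, 151, 194 and 485 in AM608, and 154, 222 and 326 in RCD. miR-486b-5p had 164, 253 and 353 scaled CPM in AM132, 158, 207 and 540 in AM608, and 165, 239 and 355 in RCD. Both again overlapped between groups, over narrower ranges of 3.21-fold and 3.41-fold across all libraries.

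**Figure D1:**
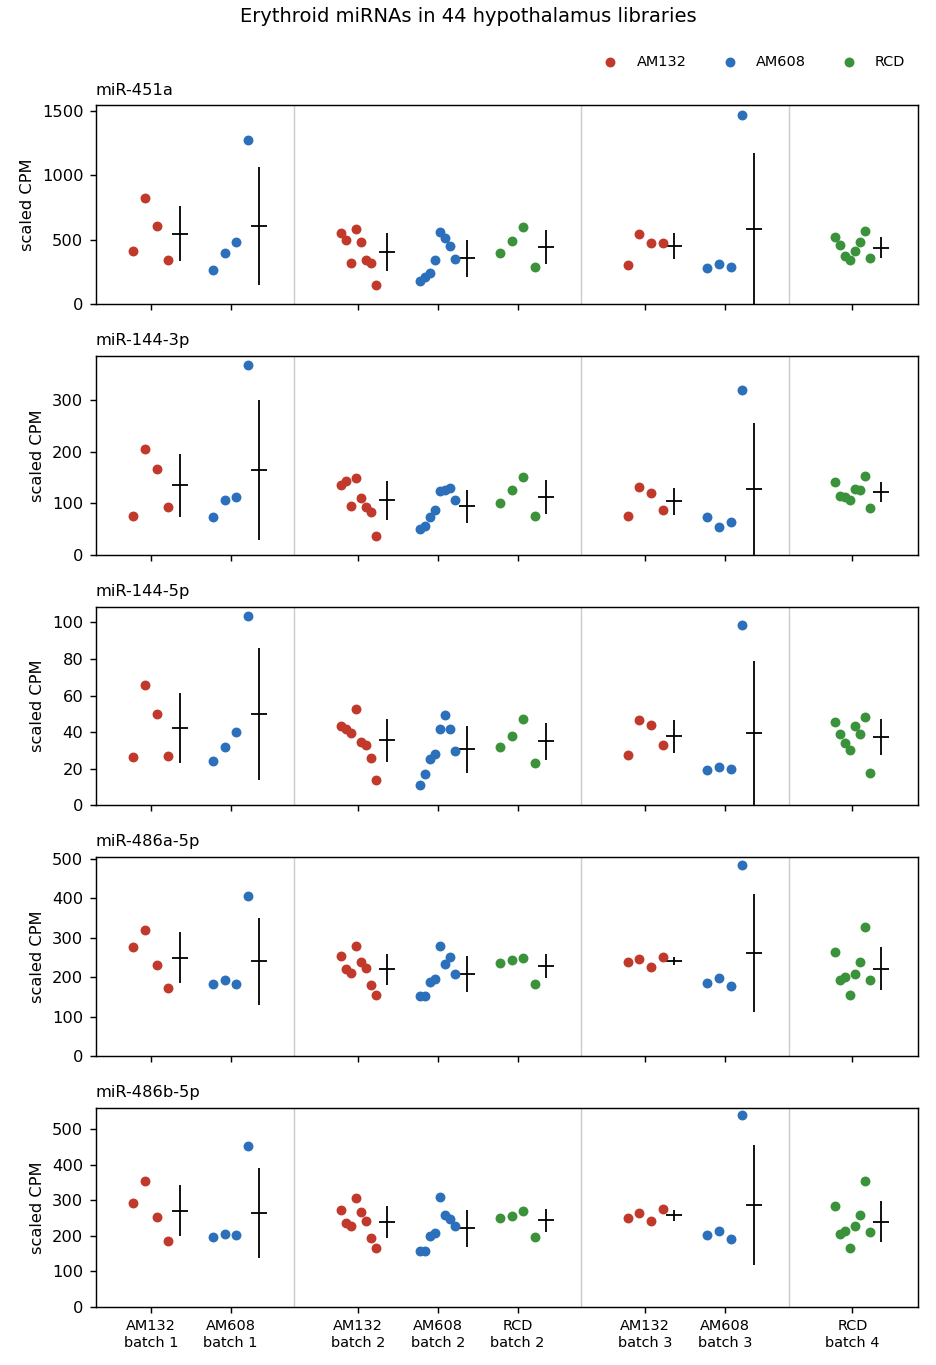
Scaled CPM (y axis, linear, from 0) of each erythroid miRNA in every library, by group and batch (x axis); points are libraries in order of their number, and the bars give the mean and SD of each group within a batch, cut at 0 where the SD passes below it. AM608 4 in batch 1 and AM608 16 in batch 3 stand above the other libraries of their group in all 5 panels, at 1276 and 1467 scaled CPM for miR-451a.

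A pair of libraries stood apart. In AM608 4 miR-451a was at 1276 scaled CPM, while the other 3 AM608 libraries of batch 1 had 262, 396 and 485. In AM608 16 it was at 1467 scaled CPM, while the other 3 AM608 libraries of batch 3 had 278, 287 and 313. The remaining members were highest in the same libraries of each set: miR-144-3p at 367 and 320 scaled CPM, miR-144-5p at 103 and 98.7, miR-486a-5p at 405 and 485, and miR-486b-5p at 453 and 540.

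Markers of other blood and vessel cells were read in the same libraries. miR-142a-3p, a miRNA of blood-forming cells, had 189 scaled CPM in AM608 4, while the rest of AM608 in batch 1 had 90.3 to 122, and 186 in AM608 16, while the rest of AM608 in batch 3 had 99.9 to 109. The summed level of 6 miRNAs of white blood cells and platelets was 2232 scaled CPM in AM608 4, inside the range of 1952 to 2548 of the others, and 1994 in AM608 16, below the 2149 to 2196 of the others. The sum of the wider red-cell list of 11 miRNAs was 3504 scaled CPM in AM608 4, at the top of the 2802 to 3502 of the others, but 2833 in AM608 16, below the 2978 to 3103 of the others. The sum of 4 miRNAs of endothelial and mural cells was 23481 scaled CPM in AM608 4, against 22530 to 43255, and 26437 in AM608 16, against 27266 to 33543. The sums follow their most abundant members. Over 44 libraries miR-146a-5p had 214581 counts in the list of white blood cells and platelets, where miR-142a-3p had 20979. In the wider red-cell list miR-185-5p had the most, 216264 counts. A change in a less abundant member can thus be hidden in a sum. None of these markers was at 0 throughout, and their part in the levels of the erythroid miRNAs was not tested.

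Ordered by mean, miR-451a was at 605 ± 457 scaled CPM in AM608 of batch 1, 586 ± 588 in AM608 of batch 3, 547 ± 215 in AM132 of batch 1 and 449 ± 101 in AM132 of batch 3 (SD, n = 4 each). It was then at 445 ± 132.6 in RCD of batch 2 (n = 4), 439 ± 81.1 in RCD of batch 4, 405 ± 147 in AM132 of batch 2 and 356 ± 142.01 in AM608 of batch 2 (SD, n = 8 each). No neighbours in this order differed by more than the larger of their SDs, and the same held for the other 4 members. In the AM608 sets of batches 1 and 3, which come first, 1 library each lay far above the medians of 441 and 299.8 scaled CPM.

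The erythroid miRNAs varied more between like libraries than most miRNAs. Within a group and batch, the SD of log2 scaled CPM was 0.66 for miR-144-5p, 0.64 for miR-144-3p, 0.64 for miR-451a, 0.38 for miR-486b-5p and 0.37 for miR-486a-5p, while the median over 602 miRNAs was 0.27. The SD of miR-451a was above that of 100% of the 77 other miRNAs whose mean lay within 1 log2 unit of its own. For miR-486a-5p the corresponding share was 86.8% of 76. These SDs are descriptions without a test.

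Differences between batches made up 8.54% of the variance of miR-451a, 8.42% for miR-144-3p, 5.21% for miR-144-5p, 4.56% for miR-486b-5p and 4.13% for miR-486a-5p. The median over the 602 miRNAs was 43.7%. A large spread within batches lowers this share by itself, so a low share is not a small difference between batches.

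**Figure D2:**
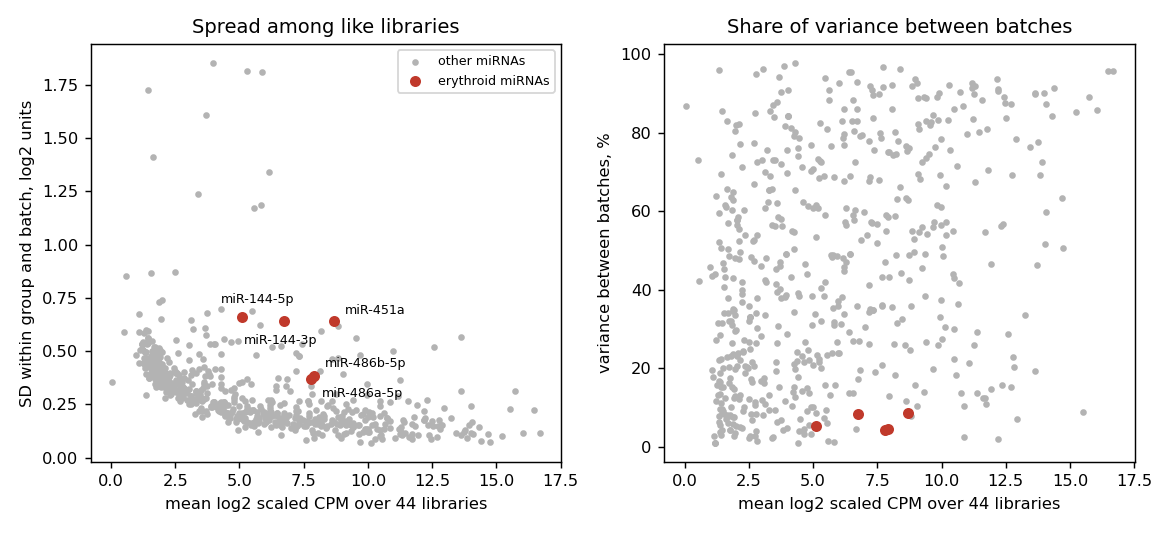
Left, SD of log2 scaled CPM within group and batch (y axis, log2 units) and right, share of variance between batches (y axis, %), against mean log2 scaled CPM (x axis); grey points are the other miRNAs and red points the 5 erythroid ones. miR-451a lies at an SD of 0.64 and a batch share of 8.54%, against medians of 0.27 and 43.7% over 602 miRNAs.

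Whether silencing miR-132 in obese mice altered these miRNAs was asked with AM132 against AM608, the comparison with a control oligonucleotide. By edgeR's quasi-likelihood test over 559 miRNAs, with batch as a term and Benjamini-Hochberg adjustment, 0 of the 5 passed at 0.05 and 0.358% of all tested miRNAs did, 0.179% higher and 0.179% lower. At an unadjusted p under 0.05 there were 23 of 559 miRNAs and 0 of the 5, and DESeq2 also called 0 of the 5. The median log2 fold change of the 5 was 0.03, against 0.00 over all miRNAs tested. Of 10 tested miRNAs of a wider red-cell list, 5 of white blood cells and platelets, 4 of endothelial and mural cells and 3 of striated muscle, 0 were called.

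Single estimates lay close to 0. The log2 fold change of miR-451a was -0.04 ± 0.24 (SE), with an approximate 95% interval of -0.52 to 0.44 and an edgeR adjusted p of 0.993. For miR-486a-5p it was 0.03 ± 0.14, with an interval of -0.24 to 0.30 and an edgeR adjusted p of 0.99. The intervals of the 3 miRNAs of the miR-144 and miR-451a locus were wider than those of the miR-486 pair, and they leave room for a difference of about 0.5 on the log2 scale in either direction. A p that misses the threshold does not show that the groups were alike.

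The sign of this comparison for miR-451a was not stable. It turned with a block for replicate number in place of batch, as given below, and also when AM608 4 and AM608 16 were left out. Without both, the log2 fold change was 0.37 ± 0.18 for miR-451a (edgeR adjusted p = 0.903), 0.36 ± 0.18 for miR-144-3p (adjusted p = 0.903) and 0.23 ± 0.10 for miR-486a-5p (adjusted p = 0.881). Those libraries were left out after their high values were seen, so these estimates are not a result about the treatment. Within batches, miR-451a gave log2 fold changes of -0.15 ± 0.47 in batch 1, 0.21 ± 0.27 in batch 2 and -0.40 ± 0.52 in batch 3 (SE), with edgeR adjusted p of 0.999, 0.980 and 0.922. Batches 1 and 3 are those that hold AM608 4 and AM608 16.

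The difference of the AM132 effect between batches was tested as an interaction in edgeR: 0 of the 5 and 0% of 559 miRNAs passed, and 23 of 559 reached 0.05 before adjustment. DESeq2 also called 0 of the 5. The edgeR adjusted p was 0.989 for each member.

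Obese and lean mice were compared in batch 2, the one batch that holds all 3 groups, with 8 AM608, 8 AM132 and 4 RCD libraries. miR-451a had 182, 347 and 560 scaled CPM in the lowest, median and highest AM608 library, against 291, 444 and 601 in RCD. In AM132 libraries of this batch it had 149.7, 411 and 584 scaled CPM. The obese groups reached lower than RCD, and both overlapped it.

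For AM608 against RCD, edgeR called 0 of the 5 and 0% of 599 miRNAs, DESeq2 called 0 of 599, and 30 of 599 had an unadjusted edgeR p under 0.05, none of them a member. All 5 estimates were below 0. The log2 fold change was -0.30 ± 0.32 (SE) for miR-451a, -0.25 ± 0.31 for miR-144-3p, -0.18 ± 0.33 for miR-144-5p, -0.12 ± 0.16 for miR-486a-5p and -0.12 ± 0.17 for miR-486b-5p, with edgeR adjusted p from 0.901 to 0.955. For miR-451a the approximate 95% interval ran from -0.93 to 0.33, so a fall or a rise of moderate size was not detectable with 4 RCD libraries.

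For AM132 against RCD, which shares the RCD libraries with that comparison, edgeR again called 0 of the 5 and 0% of 599 miRNAs, DESeq2 called 0 of 599, and 59 of 599 had an unadjusted edgeR p under 0.05, none of them a member. The log2 fold change was -0.10 ± 0.32 (SE) for miR-451a, with an interval of -0.73 to 0.54 and an edgeR adjusted p of 0.942, and -0.02 ± 0.16 for miR-486a-5p, with an edgeR adjusted p of 0.996. Without RCD 11, the RCD library highest in miR-451a, the estimate for miR-451a was 0.06.

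The 12 RCD libraries allowed batches to be compared among mice of a single group, batch 4 with 8 libraries against batch 2 with 4. miR-451a had 341, 437 and 567 scaled CPM in the lowest, median and highest library of batch 4, and 291, 444 and 601 in batch 2. The ranges overlapped almost wholly, and batch 4 lay inside batch 2. By edgeR 0 of the 5 were called, where 55.4% of 598 miRNAs were (26.9% up in batch 4, 28.4% down); DESeq2 called 0 of the 5 and 319 of 598, and 348 of 598 had an unadjusted edgeR p under 0.05, none of them a member. The log2 fold change was -0.03 ± 0.17 (SE) for miR-451a, 0.10 ± 0.17 for miR-144-3p and -0.05 ± 0.16 for miR-486a-5p, with edgeR adjusted p of 0.892, 0.675 and 0.833.

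That result depended on scaling for miR-486a-5p. With library totals alone the median log2 fold change of all miRNAs was -0.35, miR-486a-5p was at -0.38 (edgeR adjusted p = 0.0492) and 1 of the 5 was called. Relative to the median of all miRNAs, miR-486a-5p thus stayed near 0.

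Among obese mice, batch 2 (16 libraries) was compared with batch 1 (8 libraries), with group as a term. Here edgeR called 67.6% of 559 miRNAs (34.2% up in batch 2, 33.5% down) but 0 of the 5, and DESeq2 called 0 of the 5. At an unadjusted p under 0.05 edgeR had 394 of 559 miRNAs, miR-451a and miR-144-3p among them. The log2 fold change was -0.62 ± 0.29 (SE; p = 0.0423, edgeR adjusted p = 0.0608) for miR-451a, -0.61 ± 0.30 for miR-144-3p (edgeR adjusted p = 0.0686) and -0.22 ± 0.17 for miR-486a-5p (edgeR adjusted p = 0.242).

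This contrast also turned on a few libraries and on scaling. With library totals alone the median of all miRNAs was 0.32, miR-451a was at -0.30 and miR-144-3p at -0.29, with edgeR adjusted p of 0.363 and 0.386. Without AM608 4 and AM608 16 the log2 fold change of miR-451a was -0.29 ± 0.22 and that of miR-144-3p -0.23 ± 0.22, with edgeR adjusted p of 0.245 and 0.371. Without AM132 5, AM132 6 and AM608 5, 3 libraries doubted from earlier results, miR-451a was at -0.66 ± 0.29 and passed (edgeR adjusted p = 0.0479). Marker lists moved in both directions in the same contrast. Of 10 tested miRNAs of the wider red-cell list 5 were lower and 2 higher in batch 2, with a median of -0.27. Another 4 of 5 tested miRNAs of white blood cells and platelets and 4 of 4 of endothelial and mural cells were lower in batch 2, with medians of -0.47 and -0.63 against -0.01 over all miRNAs. The 3 neuronal miRNAs were all lower (median -1.11), the 4 miRNAs of pituitary and epithelium were all higher (median 3.89), and 0 of 3 muscle miRNAs were called. Single libraries stood far above their sets in that last higher list. In AM608 5 miR-375-3p had 14362 scaled CPM, where the rest of AM608 in batch 2 had 68.1 to 197. In AM132 6 miR-200a-3p had 6760, where the rest of AM132 in batch 2 had 23.5 to 286. The log2 fold change of miR-7a-5p, on the same list, was 1.37. The part of these marker lists in the batch difference of miR-451a was not tested.

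In batch 3 against batch 1, edgeR called 0 of the 5 and 0.358% of 559 miRNAs, with 69 of 559 at an unadjusted p under 0.05 and DESeq2 calling 0 of the 5 and 13 of 559. In batch 3 against batch 2, edgeR called 0 of the 5 and 68.7% of 559 (33.8% up in batch 3, 34.9% down), where library totals alone put the median of all miRNAs at -0.42, with 391 of 559 at an unadjusted p under 0.05 and DESeq2 calling 0 of the 5 and 381 of 559. None of the 5 had an unadjusted p under 0.05 in either. 

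**Figure D3:**
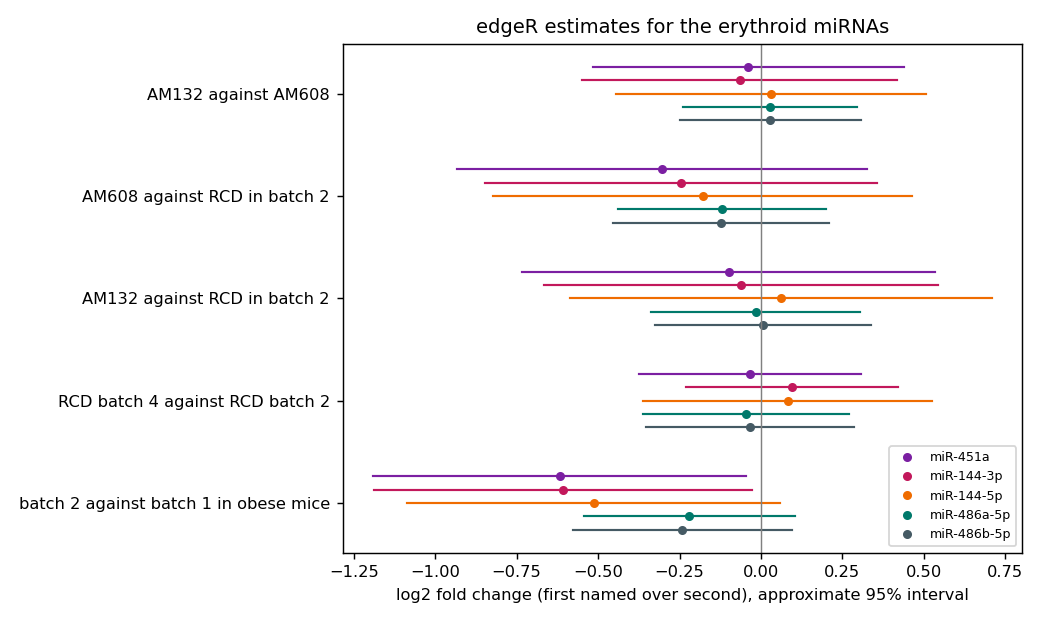
Estimated log2 fold change (x axis, first-named group over the second) with its approximate 95% interval for each erythroid miRNA in 5 comparisons (y axis). Most intervals span 0; those of miR-451a and miR-144-3p for batch 2 against batch 1 end at -0.05 and -0.03, with edgeR adjusted p of 0.0608 and 0.0686.

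Although no comparison of groups gave a call, the erythroid miRNAs moved together from library to library. Within each batch, log2 scaled CPM of miR-451a was correlated with that of 13 other miRNAs, which makes 52 relations, adjusted by Benjamini-Hochberg (two-sided permutation tests, exact for 8 libraries and with 100000 resamples for 20). All 16 relations with the other members passed by Pearson's r (0.74 to 0.98; rho 0.76 to 0.95), and all but that with miR-486a-5p in batch 1 by Spearman's rho (rho = 0.76, exact permutation p = 0.0368, adjusted p = 0.0796). In all, 21 of 52 relations passed by Pearson and 23 by Spearman. All libraries share 1 scaling, and AM608 4 and AM608 16 lie far from the rest.

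With miR-144-3p, its partner in the shared transcript, miR-451a had r = 0.96 and rho = 0.93 in batch 1 (exact permutation p = 0.000372 and 0.00223, adjusted 0.00276 and 0.0145). In batch 2 the values were r = 0.98 and rho = 0.95, each at the smallest permutation p that the resamples can give, 1e-05 (adjusted 0.00013). In batch 3 they were 0.96 and 0.81 (exact permutation p = 0.00149 and 0.0218, adjusted 0.00645 and 0.0492), and in batch 4 they were 0.88 and 0.90 (exact permutation p = 0.00422 and 0.00456, adjusted 0.0129 and 0.0198).

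With miR-486a-5p, made from another chromosome, miR-451a had r = 0.87 in batch 1, r = 0.94 and rho = 0.91 in batch 2, r = 0.96 and rho = 0.88 in batch 3, and r = 0.90 and rho = 0.86 in batch 4. The permutation p adjusted over the family was 0.0141, 0.00013, 0.0106 and 0.00633 for these r in batches 1 to 4, and 0.00013, 0.0235 and 0.0293 for these rho in batches 2 to 4. The relation was thus present in batch 4, where all libraries are RCD, as well as in the batches of obese mice.

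Leaving out the 2 libraries farthest from the batch median of miR-451a left r between 0.91 and 0.96 for the 4 members in batch 2 (18 libraries, permutation p = 1e-05 each, the smallest possible). In batch 1, without AM132 2 and AM608 4, r was 0.84 and 0.91 for the miR-144 arms (exact permutation p = 0.0444 and 0.0111) but 0.43 and 0.51 for miR-486a-5p and miR-486b-5p (p = 0.376 and 0.318, 6 libraries), so there the relation with miR-486 rested on those libraries. In batch 3, without AM132 14 and AM608 16, miR-144-5p kept r = 0.90 (exact permutation p = 0.0139), while miR-144-3p, miR-486a-5p and miR-486b-5p had r of 0.78, 0.74 and 0.75 (p = 0.075, 0.118 and 0.111), high but no longer past 0.05 with 6 libraries. In batch 4, without RCD 4 and RCD 7, r was 0.83 and 0.73 for the miR-144 arms (exact permutation p = 0.0278 and 0.0431) and 0.78 for both miR-486 miRNAs (p = 0.0806 and 0.0819), which likewise no longer passed.

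Blood-related miRNAs outside the set followed miR-451a to different degrees. miR-25-3p, which red cells also hold, had r = 0.93 and rho = 0.90 in batch 1 (adjusted exact permutation p = 0.00358 and 0.0198) and r = 0.89 and rho = 0.81 in batch 4 (adjusted 0.0141 and 0.0492). In batch 2 it passed by rho alone (0.52, adjusted permutation p = 0.0492; r = 0.50, adjusted p = 0.0587). miR-142a-3p had r = 0.80 and rho = 0.81 in batch 1 (adjusted exact permutation p = 0.0429 and 0.0492) and r = 0.95 and rho = 0.88 in batch 3 (adjusted 0.00774 and 0.0235), and in batch 2 it passed by rho alone (0.63, adjusted permutation p = 0.0185). Without the 2 farthest libraries r was 0.79 and 0.79 for miR-25-3p (batches 1 and 4, exact permutation p = 0.0611 and 0.0694). For miR-142a-3p it was 0.69 and 0.82 (batches 1 and 3, p = 0.119 and 0.05). In these batches r stayed high, but p was no longer under 0.05 with 6 libraries. Neither passed in its remaining batch of 8. There miR-142a-3p had r = 0.46 (batch 4), and 0.47 without the 2 farthest libraries. For miR-25-3p r was 0.74 (batch 3), and 0.18 without the 2 farthest libraries. miR-92a-3p passed in batch 2, at r = 0.70 and rho = 0.74 (adjusted permutation p = 0.00358 and 0.00322), and without those libraries r was 0.73 (p = 0.00049). miR-16-5p, abundant in red cells and in many other cells, gave r from 0.00 to 0.50 and passed in 0 of 4 batches.

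Among miR-223-3p, miR-150-5p, both arms of miR-126a and miR-1a-3p, no relation passed by Pearson's r and 1 passed by Spearman's rho. miR-142a-3p, on the same list of white blood cells and platelets as miR-223-3p and miR-150-5p, passed in 2 batches by r, as given above. miR-223-3p had only 420 counts over 44 libraries, so its r rests on few reads per library. r lay between -0.63 and 0.56 for miR-223-3p of neutrophils, between -0.08 and 0.24 for miR-150-5p of lymphocytes, and between -0.24 and 0.28 for miR-126a-3p of endothelium. For miR-1a-3p of striated muscle it lay between -0.70 and 0.38. Without the 2 farthest libraries, r of miR-1a-3p was 0.84 in batch 1 (exact permutation p = 0.0264, unadjusted, 6 libraries). In batches 2 to 4 it was then 0.34, -0.44 and 0.08. For miR-223-3p it was 0.50 in batch 2 (permutation p = 0.0347, unadjusted, 18 libraries), and 0.62, -0.37 and -0.15 in batches 1, 3 and 4. The remaining relations of these miRNAs did not reach 0.05 in this check. By rho, miR-1a-3p passed in batch 2 (rho = 0.64, permutation p = 0.00299, adjusted p = 0.0173), where its r was 0.38; without AM132 5, AM132 6 and AM608 5 its r was 0.60 and passed too (adjusted permutation p = 0.0297). AM132 6 had 3124 scaled CPM summed over 3 muscle miRNAs, where the rest of AM132 in batch 2 had 282 to 471. For each of the 5 members it lay inside the range of those libraries. It was also above them in the sum of the wider red-cell list (3327 against 2831 to 3088 scaled CPM). The same held for white blood cells and platelets (2257 against 1337 to 1563) and for endothelial and mural cells (29889 against 15859 to 20767). In the neuronal sum it was below them (101748 against 103007 to 146675). miR-486 is also a miRNA of muscle, and the part of muscle in its level was not tested.

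**Figure D4:**
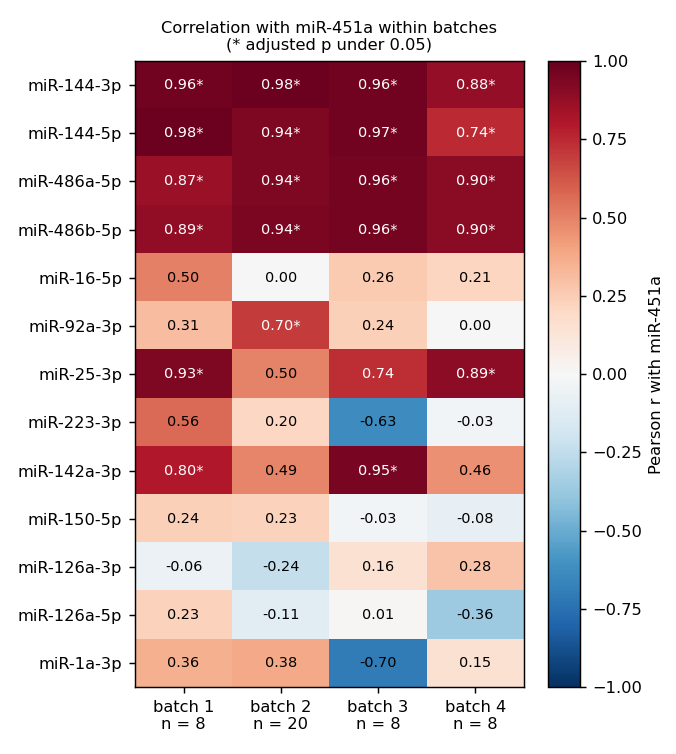
Pearson's r between log2 scaled CPM of miR-451a and of 13 other miRNAs (rows) within each batch (columns), with n libraries under each column and an asterisk where the permutation p adjusted over 52 relations is under 0.05. The 4 erythroid rows at the top run from 0.74 to 0.98, while those of miR-223-3p, miR-150-5p, miR-126a and miR-1a-3p hold no asterisk.

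To find the miRNAs most like miR-451a, Spearman's rho was taken over 44 libraries after each batch mean was subtracted, among 601 other miRNAs. The closest were miR-144-3p (0.96), miR-144-5p (0.94), miR-486b-5p (0.89) and miR-486a-5p (0.87), followed by miR-142a-5p (0.81). The median rho over all 601 was 0.00. For miR-486a-5p the closest were miR-486b-5p (0.99), miR-451a (0.87), miR-144-5p (0.81), miR-144-3p (0.81) and miR-486a-3p (0.63). These are descriptions over libraries that share a scaling, and they carry no test.

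A wider list of 11 miRNAs held by red cells followed miR-451a less closely. It gave rho from -0.05 to 0.74 for the 10 with enough counts, with a median of 0.25, led by miR-15b-5p (0.74) and miR-25-3p (0.63). The 6 white-cell and platelet miRNAs gave -0.11 to 0.81 with a median of 0.14, led by both arms of miR-142a. The 3 striated-muscle miRNAs gave 0.11 to 0.36 with a median of 0.34, which is above the medians of the wider red-cell and white-cell lists. The 4 endothelial and mural miRNAs gave -0.08 to 0.09, and the 3 neuronal ones -0.14 to 0.01. The part of muscle in the levels of the erythroid miRNAs was not tested.

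In counts, the ratios between members of the same locus varied less across libraries than their levels did. miR-144-3p over miR-144-5p had a median ratio of 3.13, from 2.38 in AM132 7 to 5.13 in RCD 8, and its SD on the log2 scale was 0.20, where counting error alone gives 0.15. miR-451a over miR-144-3p had a median of 3.88, from 3.18 in RCD 4 to 5.78 in AM608 14. miR-486b-5p over miR-486a-5p had a median of 1.08, from 0.990 to 1.12, and was above 1 in 43 of 44 libraries. How reads were shared between these miRNAs is not known and could by itself set this ratio, so it is not a result about their locus. Mature miRNAs are read whole, so these ratios need no correction for length.

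Between loci the proportion moved more. miR-451a over miR-486a-5p ranged from 0.968 in AM132 12, the library lowest in miR-451a, to 3.15 in AM608 4, with medians of 2.01 in AM132, 1.72 in AM608 and 1.98 in RCD. Within group and batch, log2 miR-486a-5p changed by 0.52 ± 0.04 (SE) per log2 unit of miR-451a, with a 95% interval of 0.43 to 0.61, and log2 miR-486b-5p by 0.54 ± 0.04. The slope was 0.97 ± 0.04 for miR-144-3p and 0.97 ± 0.06 for miR-144-5p. Without AM608 4 and AM608 16 the slope of miR-486a-5p was 0.45 ± 0.06 and that of miR-144-3p 0.92 ± 0.06. These slopes were computed after the values had been seen and are given as descriptions. In such bulk tissue, fewer cells of a type and less RNA per cell cannot be told apart.

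**Figure D5:**
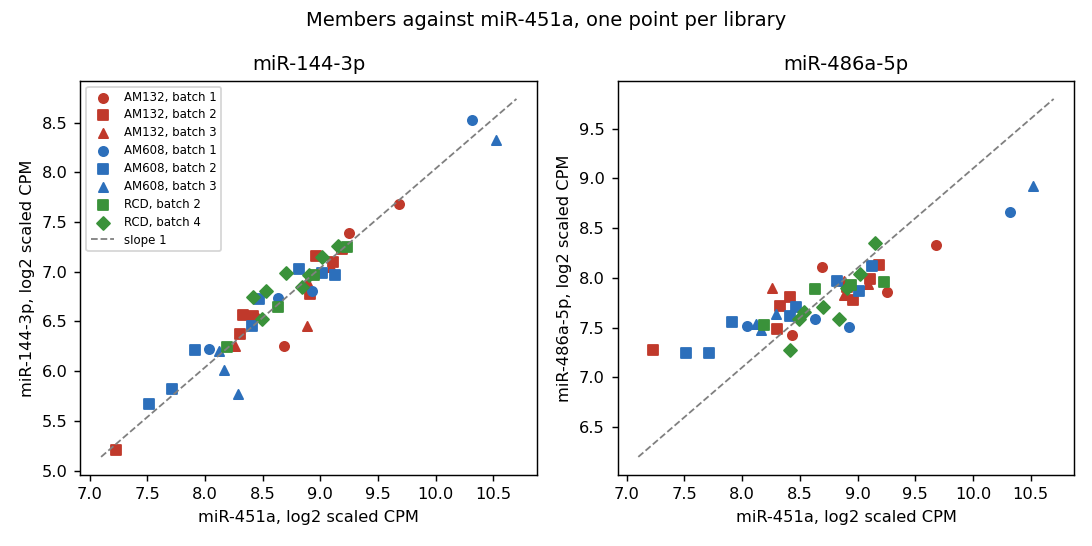
log2 scaled CPM of miR-144-3p (left) and miR-486a-5p (right) against that of miR-451a (x axis), with 1 point per library, groups by colour and batches by shape; the dashed line has a slope of 1. miR-144-3p follows the dashed line (slope 0.97), while miR-486a-5p is flatter (slope 0.52).

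The other strands of these hairpins were rare. miR-486a-3p had 12 to 35 counts per library in AM132, 7 to 41 in AM608 and 13 to 65 in RCD. miR-486b-3p had 1 to 7 counts in AM132, 1 to 7 in AM608 and 0 to 7 in RCD. miR-451b, from the strand opposite miR-451a, had 0 counts in all 44 libraries, which over their summed 181716379 counts allows up to 0.0165 CPM for a limit of 3 counts.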

How the data were processed

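RNA was extracted with the miRNeasy kit (RNA integrity above 8.4), and 200 ng went into NEBNext small RNA libraries for the NextSeq 500, per the labels' protocols. The authors deposited raw read counts per mature miRNA. FastQC is listed in the submitters' processing notes; adapter trimming, aligner, miRNA release and build are not given in the sources used here. All 44 columns matched the labels. The members and the marker lists were chosen with earlier results of these data known.

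Counts were tested in R 4.3.3 with edgeR 4.0.16: filterByExpr by group (minimum count 10, minimum total 15), TMM, quasi-likelihood F tests, Benjamini-Hochberg at 0.05. DESeq2 1.42.0 was an alternative. Log2 values used a prior count of 2. Permutations used NumPy 2.4.6, and Wilson intervals used SciPy 1.17.1. Named miRNAs were the 5 members, the other strands of their hairpins, the marker lists and the 5 closest to miR-451a and to miR-486a-5p; miR-15b-5p and the slopes were added after values were seen. Loci came from GENCODE on GRCm38. The fits were tested on simulated data. The labels do not say that samples came from separate mice beyond numbering them, so p-values measure the spread between these samples. No library duplicated another (chi-square over degrees of freedom at least 5.02 for pairs within a group). Alternatives were other scalings, filters and libraries, separate batches and a replicate block.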

Additional observations from a re-analysis of the deposited data

Results flagged for a closer look

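Within each group and batch, the highest or lowest library was compared with the rest on log2 scaled CPM. The measure was the share of the whole range that separates it from its nearest neighbour (Dixon's ratio). Levels below are printed as scaled CPM without the log, and which libraries pass depends on this scale. Of 40 sets examined, 11 held a library past the 95% critical value; chance gives about 1 in 20. The 5 members move together, so these are not independent.

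AM608 16 stood above the other AM608 libraries of batch 3 for all 5 members. The ratio was 0.929 for miR-451a (1467 scaled CPM), 0.829 for miR-144-3p (320 scaled CPM), 0.955 for miR-144-5p (98.7 scaled CPM), 0.888 for miR-486a-5p (485 scaled CPM) and 0.886 for miR-486b-5p (540 scaled CPM). The value of miR-144-3p lies on the critical value itself. AM608 4 stood above the other AM608 libraries of batch 1 for miR-486a-5p, with a ratio of 0.933 (405 scaled CPM), and for miR-486b-5p, with 0.939 (453 scaled CPM). For miR-451a and both miR-144 arms AM608 4 was the highest of its set but did not pass the critical value.

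AM132 12 stood below the other AM132 libraries of batch 2 for miR-451a, with a ratio of 0.549 (149.7 scaled CPM), and for miR-144-3p, with 0.575 (36.4 scaled CPM). RCD 8 was low among the RCD libraries of batch 4 for miR-144-5p alone, with a ratio of 0.528 (17.8 scaled CPM, from 54 counts). RCD 12 was low among those of batch 2 for miR-486a-5p, with a ratio of 0.837 (183 scaled CPM).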

How the results depend on the processing

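The count of called members was 0 under 76 of 78 alternatives. It was 1 for RCD batch 4 against batch 2 with library totals only, and 1 for batch 2 against batch 1 in obese mice without AM132 5, AM132 6 and AM608 5. Of 208 fold changes under alternatives, 27 turned sign, none of them past the test, and 2 passed where the main value had not; 4 of 117 correlations turned sign and 4 newly passed. The count over all miRNAs moved in 14 of 78. Their cause was not tested. For AM132 against AM608 the log2 fold change of miR-451a was 0.21 in batch 2 alone and 0.37 without AM608 4 and AM608 16 (chosen after seeing the data), and that of miR-144-3p 0.19 and 0.36. miR-144-5p was at -0.0937 without AM132 5, AM132 6 and AM608 5, -0.25 in batch 1 and -0.0734 in batch 3. miR-486a-5p was at -0.0025 with library totals only, -0.0247 without those 3 libraries and -0.14 in batch 3, and miR-486b-5p at -0.0015, -0.0257 and -0.17. For RCD batch 4 against batch 2, miR-451a was at 0.0138 with RLE size factors and 0.0136 with DESeq2, and miR-144-3p at -0.24 with library totals only. miR-486a-5p was at 0.11 for batch 2 against batch 1 with library totals only.

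With single RCD libraries left out, the range was -0.26 to 0.0597 for miR-451a and -0.11 to 0.0167 for miR-486a-5p in AM132 against RCD. In RCD batch 4 against batch 2 it was -0.18 to 0.16 for miR-451a, -0.0491 to 0.28 for miR-144-3p and -0.13 to 0.0097 for miR-486a-5p. With library totals only, r with miR-451a was 0.23 for miR-126a-3p in batch 1, -0.0464 for miR-126a-5p in batch 3, and 0.14 for miR-223-3p and 0.0009 for miR-150-5p in batch 4.

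Whether the replicate numbers pair AM132 with AM608 libraries was not tested and cannot be settled from these values. The correlation of deviations had a median of 0.19 and was over 0.1 in 11 of 16 pairs, from -0.31 to 0.54. Of the 16, 6 correlated best with their own number. With the replicate block in place of batch, miR-451a was at 0.13 and miR-144-3p at 0.0901 for AM132 against AM608, and with the block miR-486a-5p was at 0.0242 for AM132 against RCD; 0 members were called. Depth limited miR-144-5p most, with as few as 46 counts.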

Other observations

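Slopes on miR-451a were also taken for miRNAs outside the set. Within group and batch, the slope of log2 scaled CPM per log2 unit of miR-451a was 0.47 ± 0.06 (SE) for miR-15b-5p, 0.36 ± 0.07 for miR-142a-3p, 0.29 ± 0.04 for miR-142a-5p, 0.21 ± 0.04 for miR-25-3p and 0.20 ± 0.07 for miR-92a-3p. For miR-16-5p, the seed partner of miR-15b-5p, the slope was 0.08 ± 0.06, with a 95% interval of -0.05 to 0.22. These slopes were chosen after the values were seen and carry no test.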
